A study of Mus musculus with 5 samples.

Results

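Neutrophils of the mouse liver were the cells that the authors' annotation of the liver data on the ApoE background names Neutrophils. They number 68 of 8662 cells in 2 libraries, and of 14878 cells in the 5 libraries of the series. All 68 lie in the authors' cluster 15. Of them, 51 came from the library labelled DKO and 17 from the library labelled WT.

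Neutrophils are short-lived phagocytes made in bone marrow that reach tissues through the blood. As they mature, they make their granule proteins in a fixed order: primary (azurophil) granules first, then secondary (specific) and tertiary (gelatinase) granules, and last the surface receptors that guide a circulating cell to inflamed tissue. Their most abundant cytosolic protein is calprotectin, a calcium- and zinc-binding pair of S100A8 and S100A9. In the liver they pass through the sinusoids beside Kupffer cells, the resident macrophages.

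RNA was counted in single cells from 10x Genomics libraries as unique molecular identifiers (UMIs), 1 per captured molecule. Both liver libraries used here are on an ApoE background, with the genotype DKO or WT. The labels name liver DKO mice without spelling DKO out, and the series title concerns epsins of the liver, which are endocytic adaptors of clathrin-coated pits. A protocol shared by all libraries names 3 mice and does not tie them to libraries, so pooling of animals cannot be read from them, and age, sex, diet and the promoter behind the deletion are not stated in the sources used here. Over all liver cells Epn1 stood at 67.8 CPM (counts scaled to 1000000 UMIs) in the library labelled DKO and 57.4 CPM in the one labelled WT, and Epn2 at 10.3 and 8.0 CPM. Neither was lower in the library labelled DKO, although a 3′ tag outside a deleted part checks nothing. In neutrophils Epn1 had 3 and 1 UMIs and Epn2 none. Each group is 1 library. No difference between the labels therefore has a replicate check or a test, and every bracket below is a 95% interval for counting error only.

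The neutrophils held 105450 UMIs, 72240 in the library labelled DKO and 33210 in the one labelled WT. A cell labelled DKO had a median of 1262 UMIs (688 to 3004) and 705 genes, and a cell labelled WT had a median of 1980 UMIs (780 to 3353) and 1028 genes. With every cell thinned to 500 UMIs, the medians were 332 and 358 genes. The median mitochondrial share of a neutrophil's UMIs was 0.474%, against 2.92% over all liver cells. The liver libraries shared 4 cell barcodes, none of a neutrophil.

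The annotated class as a whole was led by neutrophil genes, so the label matched its markers, apart from 4 calprotectin-poor cells described below. Both given markers were almost confined to it. S100a8 (chr3:90668978-90670035, plus strand) stood at 18853 CPM, from 1988 UMIs in 61 of 68 cells, against 1.42 CPM over all other liver cells. S100a9 (chr3:90692632-90695721, minus strand) stood at 22760 CPM, from 2400 UMIs in 63 cells, against 1.62 CPM. A UMI of S100a9 was found in 92.6% of neutrophils and in 0.35% of hepatocytes, a class that should lack it, at median depths of 1376 and 1566 UMIs. All 14 neutrophil markers of the list were highest in this class among the 6 liver classes. Over all 17649 genes with a UMI, 14.5% were highest in it. Since the authors' classes come from these same genes, the levels against other classes are a description.

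Receptors and secreted proteins of circulating neutrophils were also higher in the class than in the other liver cells. Csf3r, the receptor for the granulocyte growth factor G-CSF, stood at 1536 CPM against 0.736 CPM in other cells. Cxcr2, the receptor for the chemokines that recruit neutrophils, had 46 UMIs in 35 neutrophils and 0 in the 8594 other cells. C5ar1, the receptor of complement fragment C5a, had 446 CPM and Ccr1, a chemokine receptor, 256 CPM. Il1b, the pro-inflammatory cytokine, had 1612 CPM, and Il1r2, its decoy receptor, 588 CPM. Retnlg, a resistin-like peptide stored in granules, had 4855 CPM and 3 UMIs in all other cells. Hdc, the histamine-making enzyme, had 1413 CPM, and Ccl6, a chemokine, 1660 CPM. The 4 calprotectin-poor cells described below gave 26.2% of the Hdc UMIs and 29.7% of the Ccl6 UMIs. Ccl6 was the leading gene with the highest level elsewhere in the liver, 193 CPM in Kupffer cells.

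**Figure D1:**
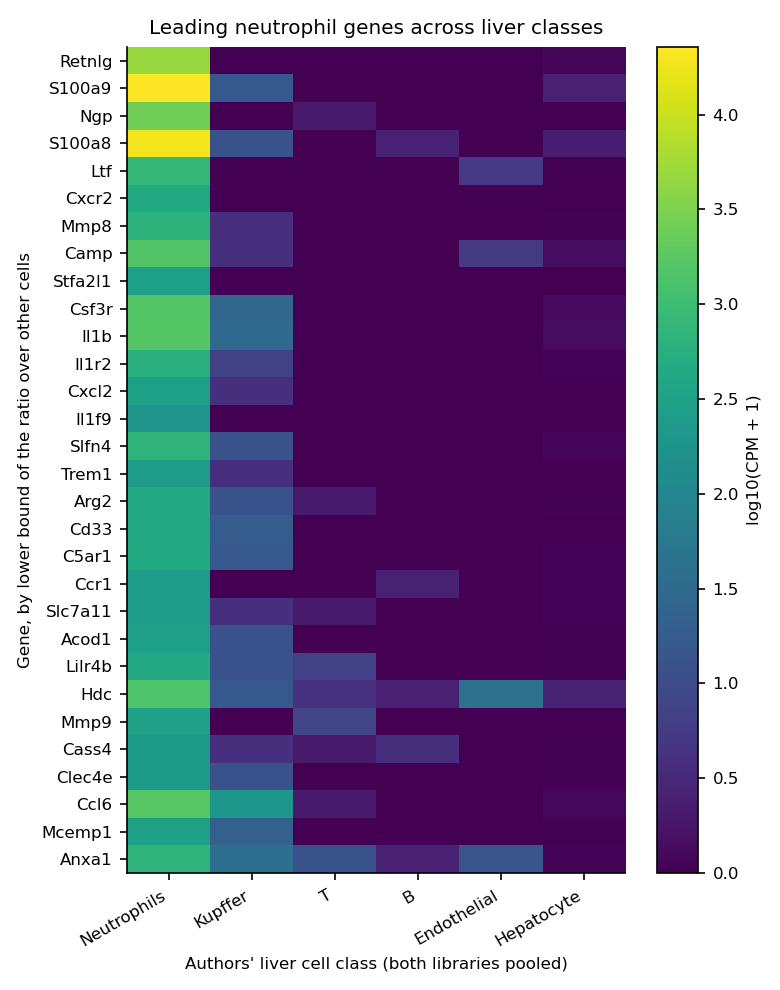
Level of the 30 genes with the highest lower bound of the ratio over other liver cells, in each of the authors' 6 liver classes, as log10(CPM + 1) with both libraries pooled. The column of neutrophils is bright for every gene, S100a9 reaches 22760 CPM, and Ccl6 and Anxa1 are visible in Kupffer cells.

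Summed over the class, markers of most other cell types were at or near 0. Of 10 Kupffer cell and macrophage markers in the table, 8 had no UMI in any neutrophil, among them C1qa, C1qb, C1qc, Clec4f, Vsig4, Timd4 and Marco. Adgre1 and Csf1r gave the other 13 UMIs. Of 8 dendritic cell markers 6 were at 0, and all 6 stellate cell and fibroblast markers and all 6 cholangiocyte markers were at 0. Of 10 monocyte markers 3 were at 0, and 41 of the 96 UMIs of the list were of Chil3, which immature neutrophils also make. Lymphocyte markers lay in a few cells. The T and NK cell list had 13 UMIs, in 4 cells labelled DKO, with at most 0.343% of a cell's UMIs against 0.332% in the T cell class. The B and plasma cell list had 13 UMIs in 3 cells labelled DKO, at most 0.378% against 1.12% in the B cell class, and 2 UMIs labelled WT. Hepatocyte transcripts were the exception. Alb, the serum albumin gene, was found in 68 of 68 neutrophils, and 12 hepatocyte markers together took 6.01% of neutrophil UMIs.

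C/EBP factors and PU.1 (Spi1) are the regulators best known for driving granule and calprotectin genes. Of these genes, S100a8 and S100a9 were found in 61 and 63 of the 68 cells, but Ngp and Camp in only 6 and 5. Their upstream sequences are shown. Each runs from 250 bases before to 50 bases after the annotated start, from RefSeq on GRCm38.p6, 5′ to 3′ on the gene's strand. S100a8 is at chr3:90668821-90669120 (plus), S100a9 at chr3:90695672-90695971 (minus), Ngp at chr9:110419558-110419857 (plus) and Camp at chr9:109849407-109849706 (minus). Capitals mark matches, on either strand, to TTGCNNAA for C/EBP or GAGGAA for PU.1.
S100a8 promoter: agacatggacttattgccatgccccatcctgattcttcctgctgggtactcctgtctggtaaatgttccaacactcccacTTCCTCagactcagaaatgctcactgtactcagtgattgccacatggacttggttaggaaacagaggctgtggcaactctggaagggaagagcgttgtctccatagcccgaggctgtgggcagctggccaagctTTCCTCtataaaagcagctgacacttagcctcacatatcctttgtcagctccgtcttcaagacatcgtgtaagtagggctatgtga
S100a9 promoter: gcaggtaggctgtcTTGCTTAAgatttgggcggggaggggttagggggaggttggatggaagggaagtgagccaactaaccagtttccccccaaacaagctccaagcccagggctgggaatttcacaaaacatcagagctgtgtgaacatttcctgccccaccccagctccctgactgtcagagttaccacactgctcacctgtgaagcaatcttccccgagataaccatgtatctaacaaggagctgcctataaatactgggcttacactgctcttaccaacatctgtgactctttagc
Ngp promoter: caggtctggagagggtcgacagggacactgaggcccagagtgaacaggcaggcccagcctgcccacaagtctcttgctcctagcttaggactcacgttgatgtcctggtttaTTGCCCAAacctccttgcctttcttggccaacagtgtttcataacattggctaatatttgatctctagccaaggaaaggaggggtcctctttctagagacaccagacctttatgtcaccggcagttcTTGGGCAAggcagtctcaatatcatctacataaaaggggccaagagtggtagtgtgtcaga
Camp promoter: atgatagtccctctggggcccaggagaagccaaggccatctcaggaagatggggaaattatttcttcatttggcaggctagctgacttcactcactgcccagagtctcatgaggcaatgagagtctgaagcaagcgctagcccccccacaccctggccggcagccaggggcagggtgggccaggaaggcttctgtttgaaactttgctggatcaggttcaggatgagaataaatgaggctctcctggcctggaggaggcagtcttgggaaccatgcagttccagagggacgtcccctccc
The capitals of S100a8 are PU.1 matches on the opposite strand, 170 and 36 bases before the start. S100a9 has a C/EBP match 236 bases before it. Ngp has C/EBP matches 138 and 11 bases before it, and Camp has none of either motif in this window. Of the 30 leading neutrophil genes, 28 had a promoter in the RefSeq table. TTGCNNAA was in 8 of these (28.6%) and in 10.8% of all 32851 promoters. GAGGAA was in 15 (53.6%) and in 28.3% of all. A match is a description of letters and not a site of binding.

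Spi1 itself stood at 465 CPM in neutrophils and 4.95 CPM elsewhere. Cebpb stood at 465 CPM, against 314 CPM elsewhere, and Cebpe, the factor of granule-forming stages, had 1 UMI. Mxd1, a MAX partner that opposes MYC, was found in 50 of 68 cells at 910 CPM.

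The 68 cells were not alike, and their granule genes separated them. Ngp, Camp and Ltf, which encode the secondary granule proteins neutrophilic granule protein, cathelicidin and lactoferrin, were almost restricted to 5 cells. These 5 cells, 4 labelled DKO and 1 labelled WT, were set apart after their values were seen, as those with at least 3 UMIs of the 3 genes together. They held 268 of 269 Ngp UMIs, 158 of 158 Camp UMIs and 83 of 83 Ltf UMIs. They also held 41 of 41 UMIs of Chil3, a chitinase-like protein, and 130 of 170 UMIs of Lcn2, the iron-chelator-binding lipocalin.

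The same 5 cells were the richest in calprotectin. S100a8 and S100a9 made up 10.3% to 20.1% of their UMIs, and 9.76% at most in any other neutrophil. The 5 cells thus gave 46.1% of all S100a8 UMIs and 43.6% of all S100a9 UMIs of the class. They were deep, with a median of 2782 UMIs. Csf3r and Il1b had no UMI in any of them, at an upper bound of 281 CPM, while the remaining cells stood at 1889 CPM (1609 to 2203) for Csf3r and 1982 CPM (1696 to 2304) for Il1b.

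In the 4 such cells labelled DKO, from the shallowest to the deepest, Ngp had 7, 50, 33 and 79 UMIs and Camp had 4, 22, 10 and 53. Retnlg in the same order had 40, 25, 41 and 9 UMIs. The cell labelled WT had 99 UMIs of Ngp, 69 of Camp, 31 of Chil3 and 0 of Retnlg. The cells with the most Ngp, at 79 and 99 UMIs, were those with the least Retnlg. Cybb, the membrane subunit of the NADPH oxidase, had 25 of its 31 UMIs in the 5 cells. No UMI of Mki67, a marker of dividing cells, was found in them. Prtn3 and Prss57, the primary granule proteases present in the table, had no UMI in any neutrophil, and other primary granule genes were not analysed here.

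At the other end, 4 cells had almost no calprotectin. They were also set apart after their values were seen, as cells with at most 1 calprotectin UMI and none of Csf3r or Il1b. All 4 were labelled DKO. There were 0 of 17 in the library labelled WT, with an exact Clopper-Pearson interval of 0% to 19.5%. With 1580 to 1725 UMIs each, they were deeper than the median neutrophil labelled DKO. Retnlg had no UMI in them. In their place stood Hdc with 39 UMIs, in all 4 cells, at 5935 CPM (4220 to 8114) against 1166 CPM (949 to 1418) in the remaining 59 cells. Ccl6 had 52 UMIs in all 4 cells, at 7914 CPM against 1411 CPM.

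These 4 cells also held most of the class's UMIs of genes that the other cells of the class barely showed. Runx1, a haematopoietic transcription factor, had 22 of its 38 UMIs there, in all 4 cells. The chemokine genes Ccl3 and Ccl4 had 12 of 13 and 13 of 14 UMIs there, in 3 cells each. Hgf, hepatocyte growth factor, had 11 of 12, and Csf1, the macrophage growth factor, 14 of 23. Il18r1, a subunit of the interleukin-18 receptor, had all 8 of its UMIs of the class in these cells, and Cyp11a1, a steroid-making enzyme, all 6. Cpa3, a mast cell and basophil protease, had 3 UMIs in 2 of the 4 cells and none in the other 64. Only 2 of the 9 genes listed for eosinophils, basophils and mast cells are in the table, and the second, Prg2, was at 0. The authors' class name is kept for these cells, and the label's own markers are nearly absent from them. They are counted in the levels and library ratios of the class unless stated otherwise.

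**Figure D2:**
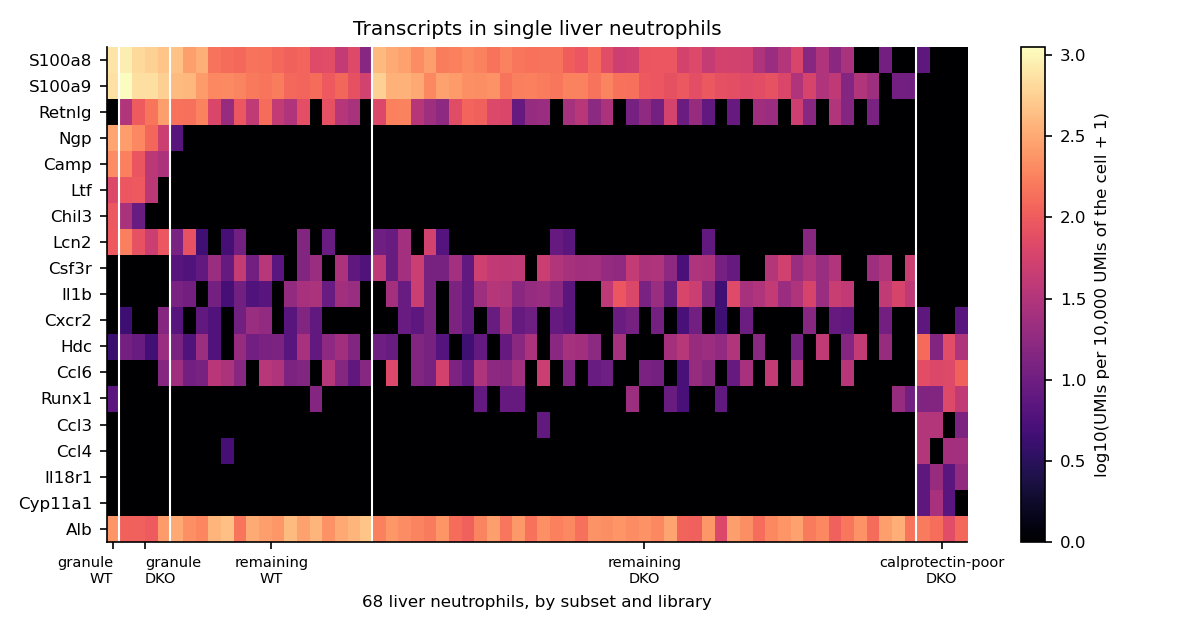
Transcripts of 19 genes in each of the 68 neutrophils as log10(UMIs per 10000 UMIs of the cell + 1), grouped by subset and library, with white lines between groups. Ngp and Camp are in all 5 cells at the left, Ltf in 4 and Chil3 in 3. Csf3r and Il1b are in 51 and 50 of the 59 cells in the middle. Hdc, Ccl6 and Runx1 are in all 4 cells at the right, and Ccl3 and Ccl4 in 3 each. Hdc and Ccl6 are also in 41 and 38 of the middle cells, and Alb is present in all.

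**Figure D3:**
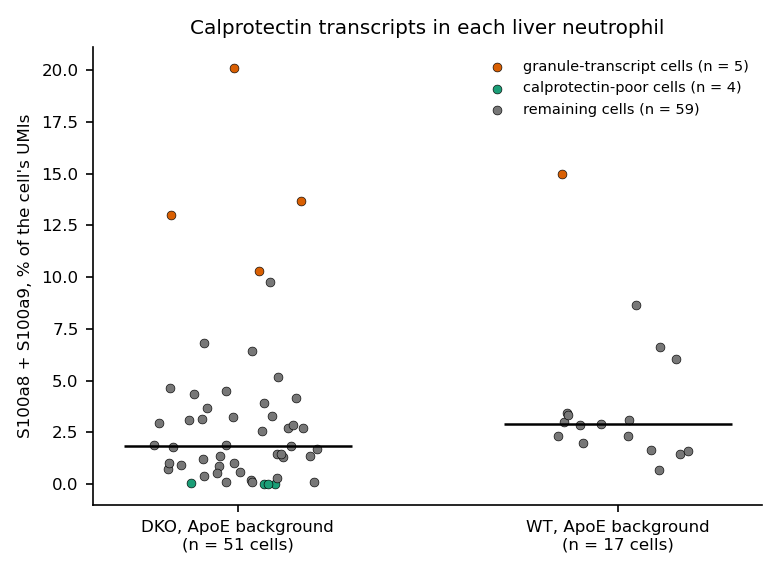
S100a8 plus S100a9 as a percentage of each neutrophil's UMIs, by library. Points are cells coloured by subset, the horizontal spread is random, and lines are medians (1.83% in 51 cells labelled DKO and 2.90% in 17 labelled WT). The 5 granule-transcript cells lie above 10.3% and the 4 calprotectin-poor cells at 0 or close to it.

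The remaining 59 cells, 43 labelled DKO and 16 labelled WT, had calprotectin between 0.0943% and 9.76% of their UMIs, with a median of 2.31%. Csf3r was found in 51 of them and Il1b in 50. Cxcr2 was found in 31. They held 1 UMI of Ngp and 0 of Camp and Ltf. Other granule genes were present, among them Lcn2 (40 UMIs in 16 cells), Pglyrp1 (58 in 32), Lyz2 (66 in 25) and Mmp8 (33 in 18).

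Neutrophils made up a larger share of the library labelled DKO, but so did other immune cells. They were 51 of 4331 cells labelled DKO, or 1.18% (0.878 to 1.55), and 17 of 4331 labelled WT, or 0.393% (0.229 to 0.628). Both libraries hold the same number of deposited cells, and these shares are of deposited cells only. The ratio was 3.00 (1.70 to 5.54). Among the other classes it was 5.48 for B cells, 4.49 for T cells, 2.05 for Kupffer cells, 1.14 for endothelial cells and 0.837 for hepatocytes. Of cells outside the hepatocyte class, neutrophils were 5.37% (4.03 to 7.01) labelled DKO and 5.84% (3.44 to 9.19) labelled WT, and the ratio turned to 0.920 (0.523 to 1.70). More neutrophils and fewer captured hepatocytes cannot be told apart in such shares. Cells with at least 3 calprotectin UMIs and a further neutrophil marker numbered 43 and 20, a ratio of 2.15 (1.24 to 3.86). That rule took 60 of the 68 annotated cells and 3 cells of other classes, all labelled WT.

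Within neutrophils, the levels in both libraries were compared for the 919 genes with at least 20 neutrophil UMIs. Of these, 399 (43.4%) had the higher level in that labelled DKO. At least 2-fold higher were 87 (9.47%) and at least 2-fold lower 88 (9.58%). The median log2 ratio was -0.12. With mitochondrial and Gm42418-type transcripts left out of the totals it was 0.03, and the counts were 111 higher and 61 lower.

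Several of the genes farthest apart between the libraries differed the same way in all liver classes. Of 11 genes named for the highest ratios, 6 were also higher in each of the 5 other classes and 5 were not. Over all tested genes that were higher in neutrophils, 61 of 399 (15.3%) were higher in all 5. Gm42418, a locus that overlaps ribosomal RNA sequence, took 12.6% of neutrophil UMIs labelled DKO and 3.77% labelled WT. In the other classes it took 4.13% to 13.5% and 2.06% to 4.02%. Cmss1 (912 and 100 UMIs), Camk1d (886 and 114), Cdk8 (110 and 2), Lars2 (161 and 18) and Gphn (83 and 6) behaved likewise in each class.

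Of the 12 lowest ratios, 8 were also lower in all 5 other classes, against 172 of 520 (33.1%) of all tested genes that were lower, and 6 of these 8 encode liver-secreted or liver-enriched proteins. Apoa2, an apolipoprotein, had 6631 and 16200 CPM in neutrophils, a ratio of 0.409 (0.361 to 0.464). It was 0.364 in Kupffer cells, 0.373 in T cells and 0.718 in hepatocytes. The set of 12 hepatocyte markers took 4.72% of neutrophil UMIs labelled DKO and 8.82% labelled WT, and all 12 were lower in the former. Their summed share per cell ran from 1.61% to 8.78% labelled DKO and from 4.65% to 14.2% labelled WT. The Apoa2 to Alb ratio of neutrophils was 0.381 and 0.530, and that of hepatocytes was 0.406 and 0.478 in the same order. The part of such background RNA, and of Gm42418, in the differences below was not tested.

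**Figure D4:**
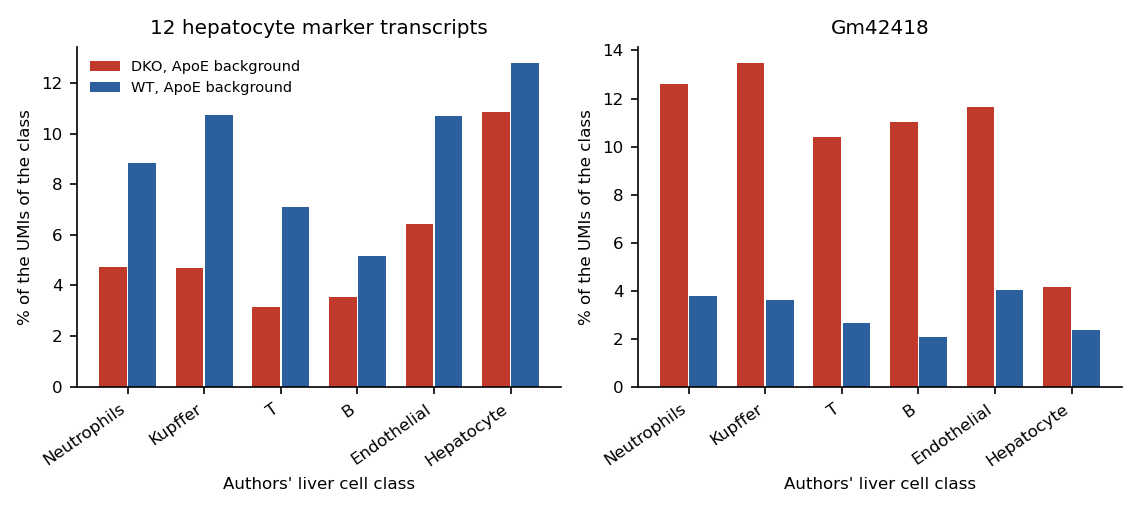
Share of the UMIs of each liver class taken by 12 hepatocyte markers (left) and by Gm42418 (right), 1 bar per library. In neutrophils the hepatocyte markers stood at 4.72% labelled DKO and 8.82% labelled WT, and Gm42418 at 12.6% and 3.77%, with the same order of libraries in the 5 other classes.

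A smaller group of genes differed in neutrophils and did not keep the same direction in every other class. Themis2, an adaptor of immune receptor signalling, had 25 UMIs in 20 of 51 cells labelled DKO and 0 in 17 cells labelled WT, at least 3.83-fold higher against a floor of 3 counts per library. That fold leaves out the counting error of the 25 UMIs, and the lower bound of the interval is 2.89. In Kupffer cells it had 10 and 6 UMIs. Acod1, the enzyme that makes itaconate in activated myeloid cells, had 28 UMIs in 9 cells labelled DKO and 2 in 1 cell labelled WT, a ratio of 6.44 (1.62 to 55.8), and 4.28 (1.02 to 38) without the 1 cell that held 10 of the 28. Riok3, an atypical kinase, had 21 and 1 UMIs, a ratio of 9.65 (1.55 to 399). Rpl8, a ribosomal protein gene with near-identical copies that could share reads, had 37 and 3. Inpp4b, a lipid phosphatase, had 25 and 0 UMIs, and 16 of the 25 were in the 4 calprotectin-poor cells. Themis2, Rpl8 and Inpp4b were also higher in 4 of the other classes, and Acod1 and Riok3 in 2. Some of these rest on 1 UMI. Inpp4b stood at 1.47 (1.32 to 1.65) in T cells and Rpl8 at 1.49 (1.16 to 1.92) in Kupffer cells. Riok3 was lower in 3 classes, and Inpp4b and Rpl8 in 1. Endothelial cells had no Themis2 UMI, and T, B and endothelial cells had no Acod1 UMI.

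On the lower side, single cells decided some values. Chil3 had 10 and 31 UMIs, and all 31 came from the granule-transcript cell labelled WT, so the direction turns without it. Ifitm1, an interferon-induced membrane protein that restricts virus entry, had 38 and 54 UMIs, with 526 and 1626 CPM and a ratio of 0.324 (0.208 to 0.499). A single cell labelled WT held 26 of the 54, and the ratio was 0.585 (0.35 to 0.99) without it. In Kupffer cells Ifitm1 was also lower, with 18 and 40 UMIs and a ratio of 0.284 (0.154 to 0.508). Over the other classes it was lower in 3 and higher in 2. St3gal4, a sialyltransferase, had 7 and 15 UMIs, and Slc10a1, the bile acid carrier of hepatocytes, 8 and 16. Slc10a1 was also lower in Kupffer, T and B cells, at 0.544, 0.440 and 0.639, and higher in endothelial cells and hepatocytes.

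**Figure D5:**
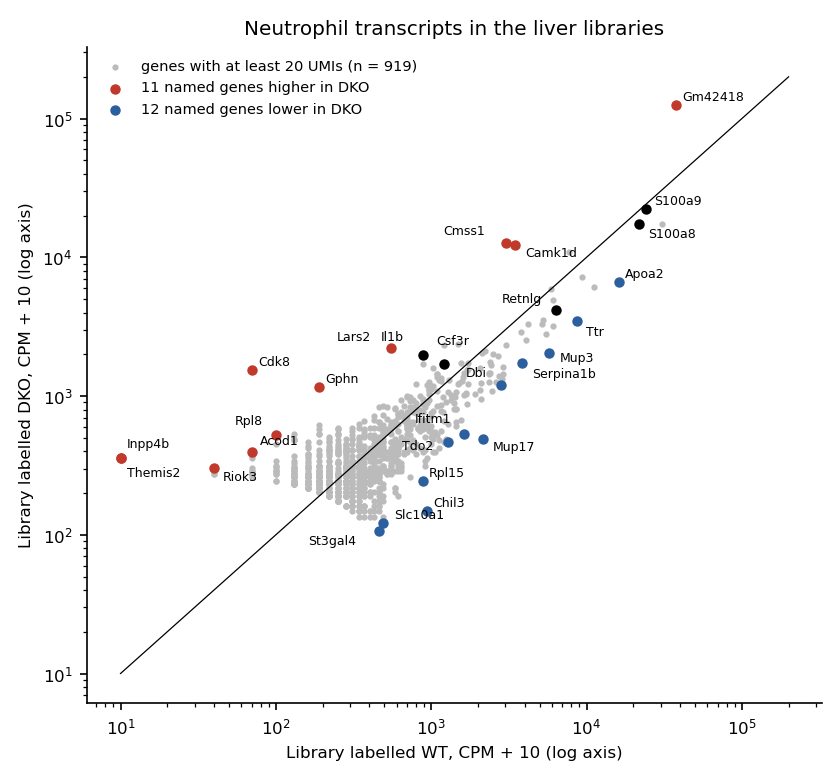
Level of 919 genes in neutrophils of the library labelled DKO against the library labelled WT, as CPM + 10 on log axes, with the line of equality. Red and blue points are 11 genes far above it and the 12 farthest below it by the interval of their ratio, and black points are 5 neutrophil genes, of which Il1b lies above the line at 1952 and 873 CPM and Retnlg below it at 4181 and 6323 CPM.

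Among the genes that lead the class, Il1b was higher in the library labelled DKO and Retnlg and S100a8 were lower. Il1b had 141 and 29 UMIs, 1952 and 873 CPM, a ratio of 2.24 (1.49 to 3.46) that ran from 2.08 to 2.49 under the alternatives. Csf3r had 122 and 40 UMIs, 1689 and 1204 CPM, a ratio of 1.40 (0.974 to 2.06) that was 1.69 (1.13 to 2.60) without 1 cell labelled WT. Retnlg had 4181 and 6323 CPM, a ratio of 0.661 (0.553 to 0.792) that was 0.798 (0.657 to 0.973) without the cell labelled WT that held 51 of 210 UMIs. S100a8 had 17442 and 21921 CPM, a ratio of 0.796 (0.726 to 0.873) that ran from 0.609 to 0.910 under the alternatives. S100a9 had 22135 and 24119 CPM, a ratio of 0.918 (0.843 to 1.0) that turned to 1.02 without mitochondrial and Gm42418-type transcripts in the totals and to 1.01 without the calprotectin-poor cells. Without the richest cell, which is labelled DKO, S100a8 stood at 0.655 and S100a9 at 0.755. The secondary granule genes gave no common direction, with 5 of 9 tested genes higher, 4 lower and a median log2 ratio of 0.20.

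In the 59 remaining cells Il1b, Csf3r and calprotectin were part of the rule that set other cells apart, so levels there are a description of cells chosen after their values were seen. Retnlg, which was not part of the rule, stood at 3345 CPM labelled DKO and 7034 CPM labelled WT, a ratio of 0.476 (0.388 to 0.582) that includes the cell with 51 UMIs. S100a8 stood at 10716 and 15775 CPM, and S100a9 at 14276 and 18589 CPM. The cells labelled DKO were shallower, at a median of 1230 UMIs against 1890.

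Other receptors and cytokines followed no single direction. C5ar1 had 41 and 6 UMIs, a ratio of 3.14 (1.33 to 9.05). Pim1, a survival kinase induced by cytokines, had 32 and 3, a ratio of 4.90 (1.53 to 25.0). Cxcr2 had 30 and 16, a ratio of 0.862 (0.455 to 1.69), and Ccr1 0.782 (0.338 to 1.91), and both turned above 1, to 1.08 and 1.17, without the cell richest in the gene. Cxcl2, a chemokine that attracts further neutrophils, had 20 and 12 UMIs, a ratio of 0.766 (0.357 to 1.72) that turned to 2.17 without 1 cell labelled WT. Osm, the cytokine oncostatin M, had 11 and 0 UMIs.

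Of the myeloid transcription factors, 8 of 9 tested genes were higher in the library labelled DKO, with a median log2 ratio of 0.37. Runx1 (34 and 4 UMIs) and Junb (26 and 6) were the farthest. The ratio of Runx1 was 3.91 (1.39 to 15.2), or 2.71 (0.924 to 10.8) without 1 of the calprotectin-poor cells. However, the 4 calprotectin-poor cells, all labelled DKO, together held 22 of its 34 UMIs labelled DKO. Outside them Runx1 had 12 UMIs labelled DKO and 4 labelled WT. Of the actin and motility genes, 9 of 14 were higher, with a median of 0.36. The most abundant of them, Tmsb4x and Actb, were lower at ratios of 0.773 (0.670 to 0.892) and 0.806 (0.676 to 0.962). Over all genes tested 43.4% were higher, or 51.8% with mitochondrial and Gm42418-type transcripts left out of the totals.

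Of all genes tested, 56.6% were lower in the library labelled DKO. S100 and annexin genes were lower in 5 of 6 cases, with a median of -0.39, S100a6 at a ratio of 0.555 (0.420 to 0.736) and Anxa1, a brake on neutrophil recruitment, at 0.575 (0.352 to 0.945). Without the 1 cell labelled WT that held 14 of its 32 UMIs there, Anxa1 stood at 0.918 (0.515 to 1.70). Tertiary granule genes were lower in 4 of 5, with a median of -0.60, among them Mmp9, the gelatinase, at 0.805 (0.378 to 1.79). Mitochondrially encoded transcripts were lower in 8 of 9, with a median of -0.79. Interferon-stimulated genes were lower in 6 of 10, close to that share, with a median of -0.49. Ifitm1, Ifitm2 and Ifitm3 were lower. Rsad2, the antiviral viperin, had 18 and 4 UMIs, a ratio of 2.07 that was 1.63 (0.512 to 6.80) without the cell richest in it. Slfn4, a Schlafen gene of myeloid cells, had 51 and 21 UMIs, a ratio of 1.12 (0.660 to 1.95). Against the -0.12 of all genes tested, these medians describe lists of 5 to 14 genes.

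In the other libraries the authors name no neutrophils. The liver library labelled WT without an ApoE background held 12 calprotectin UMIs in 616 cells, or 6.37 CPM (3.29 to 11.1). Among the aortic classes, the one named Macrophage stood at 4923 CPM labelled DKO and 6154 CPM labelled WT, and the others at 0 to 19.1 CPM. The tables were made separately, so these levels are given without a comparison to the 41612 CPM of liver neutrophils.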

How the data were processed

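Liver and aorta libraries were made from mouse tissue with a 10x Genomics kit. Cell Ranger 7.1.0 and the build mm10 are named in the submitters' processing notes. The authors deposited filtered raw UMI counts per gene and cell, with metadata from which only the library, cell class and cluster were used; 28 other metadata columns were not used. Filters on cells, the annotation method and any removal of doublets are not stated in the sources used here. No doublet caller was run. UMIs, genes and mitochondrial shares per cell were computed from the counts. Counts were added up by class and library, divided by their total and given as CPM with exact Poisson intervals. Ratios (labelled DKO over labelled WT) have exact conditional binomial intervals and shares of cells Clopper-Pearson intervals, all at 95% and for counting error only. With 1 library per group no test was made. Named genes were those of the gene lists, the 30 with the highest lower bound of the ratio over other liver cells (ratio above 2 in both libraries) and the 12 highest and 12 lowest ratios by the interval bound nearest to 1, all with at least 20 UMIs; 1 of the 12 highest is not reported here. Members, lists and comparisons were chosen with earlier results of these data known. Alternatives changed the totals, filters, thinning and cells left out. Only the ratios and their intervals were tested on simulated data, as Poisson counts with known folds and no variation between cells. The steps were run with Python 3.11.15, numpy 2.4.6, pandas 2.3.3 and scipy 1.17.1. Gene positions are from GENCODE on the same build.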

Additional observations from a re-analysis of the deposited data

How the results depend on the processing

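Counts and levels rest on 68 cells of 1 library per label, so sensitivity to animals was not measured. No paired analysis was possible because each group is 1 library and no test was made. The ratio of neutrophil shares, 3.00, became 0.920 of cells outside the hepatocyte class. The 309 of 919 genes (33.6%) at least 4-fold higher than in other liver cells, with 20 CPM added, became 101 of 273 with at least 50 UMIs and 81 of 236 in the library labelled WT, where fewer genes were tested, and, over the same 919, 155 against other cells outside the hepatocyte class, 130 against Kupffer cells and 122 with 100 CPM added. With at least 50 UMIs, 9 genes were 2-fold higher and 34 lower in the library labelled DKO; the filter tests fewer genes. Calprotectin, 41612 CPM, was 31471 with cells thinned, 33574 as a mean over cells, 33110 without the deepest cell of each library, 44367 without the calprotectin-poor cells and 26254 without the granule-transcript cells, the last 2 chosen, like leaving out the cell richest in a gene, after the values were seen. Its ratio, 0.860 (0.808 to 0.915), was 0.778, 0.802, 0.948, 0.945 and 0.651 in the same order. Ngp, at a ratio of 0.777, stood at 38.8 without the deepest cell of each library, since that cell held 99 of the 100 UMIs labelled WT. Retnlg stood at 0.426 without the granule-transcript cells. Genes under about 20 UMIs are beyond this depth.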

Other observations

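Calprotectin transcripts in the aorta lay in a few cells of the class the authors name Macrophage. Counting cells with at least 10 UMIs of S100a8 and S100a9 together, a threshold chosen after the values were seen, gave 20 of 2800 cells labelled DKO, or 0.714% (0.437 to 1.10), and 19 of 2800 labelled WT, or 0.679% (0.409 to 1.06). Here too both libraries hold the same number of deposited cells. The authors' cluster 19 held 15 of the 20 cells labelled DKO and all 19 labelled WT. In these cells Retnlg stood at 3628 and 2805 CPM, Csf3r at 706 and 1286 CPM and Il1b at 2491 and 3993 CPM, in the order DKO and WT. Acod1 stood at 3550 and 7849 CPM and was found in 38 of the 39 cells. C1qa, a complement gene of tissue macrophages, had 0 UMIs in them and 1488 CPM in the 356 other cells of the class. Other macrophage genes were present in them. Adgre1 stood at 235 and 253 CPM, against 138 CPM in the other cells of the class. Csf1r stood at 157 and 58.4 CPM against 223 CPM, and Lyz2 at 1216 and 682 CPM against 2412 CPM. Of the 20 cells labelled DKO, 1 held all 21 Camp UMIs and all 20 Ngp UMIs.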
